A study of Mus musculus with 28 samples.

Results

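The nuclear-encoded genes of the mitochondrial respiratory chain were followed through nascent transcription in mouse forebrain cultures. Members were the genes whose mean count, normalized over all libraries, reached 20 and whose name begins with Nduf, Uqcr, Atp5 or Cox4 to Cox8, together with Sdha, Sdhb, Sdhc, Sdhd, Cyc1 and Cycs. Of 22919 genes in the tables, 94 fitted the name rule and 86 also reached the minimum. They comprised 35 subunits of complex I, 4 of complex II, 9 of complex III, cytochrome c, 12 subunits of complex IV and 15 of complex V, and 10 genes that carry such a name without being a structural subunit (7 Ndufaf assembly factors, Cox7a2l, Atp5s and Atp5sl). The minimum separated Cox6b2, with a mean count of 15.3, from Ndufaf3, with 58.5, so that no member lay close above it.

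Cortical and hippocampal cells, pooled from CD1 mouse embryos at embryonic day 18, were grown as mixed cultures of neurons, astrocytes and oligodendrocyte precursors. On day in vitro 14 all cultures, controls included, were infected with lentivirus. It encoded either a control hairpin (shCtrl) or a hairpin targeting Rai1, the gene of a chromatin-associated protein (shRai1). On day 17 they received for 4 hours vehicle (water), 1 µM tetrodotoxin (TTX), which blocks voltage-gated sodium channels and silences firing, or 20 µM bicuculline (BIC), which blocks inhibitory GABA-A receptors and raises firing. In Bru-seq, 2 mM bromouridine in the last 20 minutes labelled newly made RNA, which was captured and sequenced. The 16 libraries fell into 6 groups: 3 libraries each for shCtrl with TTX and for shRai1 with vehicle, TTX or BIC, and 2 each for shCtrl with vehicle and shCtrl with BIC. The deposited comparisons contrast the drug with vehicle in each arm and shRai1 with shCtrl in each treatment, 7 in all. Both drugs in an arm are read against the same vehicle libraries.

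The respiratory chain passes electrons from NADH (complex I) and succinate (complex II) through complex III and the soluble carrier cytochrome c to oxygen at complex IV, and the proton gradient so built drives ATP synthase (complex V). Most of the subunits are encoded in the nucleus, the rest in mitochondrial DNA. In neurons, whose ion pumping consumes much ATP, respiratory capacity is known to follow long-term activity, and the factors NRF-1, GABP (an ETS protein) and CREB are known regulators of promoters of this kind.

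Promoter sequences were read from RefSeq (GRCm38.p6), as the 300 bases from 250 before to 50 after each gene's annotated start. An entry was present for 70 of the 86 members, among 27025 genes. These 27025 are the "all genes" of the motif shares and were not limited by count, whereas the members had reached the minimum. The motif shares are thus not those of like sets, and a background limited to genes at the minimum was not counted. The cyclic AMP response element in its full form, TGACGTCA, which reads alike on both strands, was found in 5 of the 70 members (7.14%) and in 2.03% of all genes. The holders were Cycs, Uqcrfs1, Ndufa10, Ndufb2 and Ndufa11. They are shown because 4 of the 5 were among the members that fell under TTX averaged over arms. The windows lie upstream of the start, on chr6:50566686-50566783 (Cycs, minus strand), chr13:30545318-30545365 (Uqcrfs1, minus), chr1:92473798-92473845 (Ndufa10, minus), chr6:39592531-39592564 (Ndufb2, plus) and chr17:56717584-56717631 (Ndufa11, plus), each read 5′ to 3′ on the gene's strand with the element in capitals:
Cycs: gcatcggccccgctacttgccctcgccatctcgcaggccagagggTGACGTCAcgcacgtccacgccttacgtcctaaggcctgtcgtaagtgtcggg
Uqcrfs1: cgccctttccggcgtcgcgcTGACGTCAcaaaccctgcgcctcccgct
Ndufa10: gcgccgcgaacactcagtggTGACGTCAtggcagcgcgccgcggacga
Ndufb2: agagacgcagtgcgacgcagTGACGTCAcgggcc
Ndufa11: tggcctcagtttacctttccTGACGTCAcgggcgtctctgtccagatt

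The element began 169 bases before the annotated start in Cycs, 67 in Ndufa10, 29 in Uqcrfs1, 14 in Ndufb2 and 158 in Ndufa11. The NRF-1 motif, GCGCA and GCGC with any 1 base between them, searched on both strands, was found in 18 of 70 members (25.7%) and in 5.19% of all genes, and the ETS core CCGGAAG, also on both strands, in 17 of 70 (24.3%) and in 9.93% of all genes. The NRF-1 holders included Ndufa11, so that this promoter had both that motif and the full cyclic AMP response element. For 3 members whose values are given below, the NRF-1 match is shown in capitals, from chr9:50603899-50603948 (Sdhd, minus strand), chr2:36049339-36049388 (Ndufa8, minus) and chr15:102671060-102671109 (Atp5g2, minus):
Sdhd: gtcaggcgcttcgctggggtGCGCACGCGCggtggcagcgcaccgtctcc
Ndufa8: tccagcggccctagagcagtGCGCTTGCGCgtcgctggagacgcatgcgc
Atp5g2: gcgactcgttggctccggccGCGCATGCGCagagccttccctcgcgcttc

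These matches describe letters in a window and are not measured binding sites.

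Values per library were not used here. The authors' summaries gave for each comparison a log2 change, the SE (standard error) that DESeq2 derived from the libraries of the groups, and a p-value adjusted by the Benjamini-Hochberg method; a gene was called at an adjusted p under 0.05. How deeply each library was sequenced is unknown. Over all libraries the mean normalized count of the members ran from 58.5 (Ndufaf3) to 2268 (Atp5a1), with a median of 476, against 360 among the 14067 genes at or above 20. In another deposited table each condition has a single pooled level in FPKM (fragments per kilobase, scaled to the library), with bounds and no replicates. Rai1 itself was not called lower in the libraries labelled shRai1: the authors' deposited tables list log2 changes of 0.16 in vehicle (SE 0.073, DESeq2 adjusted p = 0.36), -0.12 in TTX (SE 0.0643, DESeq2 adjusted p = 1.00) and 0.03 in BIC (SE 0.0728, DESeq2 adjusted p = 1.00), so that the arms are named by their labels only. Fewer cells of a type and less RNA per cell cannot be told apart in these bulk libraries.

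In shCtrl vehicle the members were transcribed at a median of 48.9 FPKM in the authors' deposited table, against 9.18 over 14044 genes with the same minimum count. The genes were also short, with a median interval of 7.50 kb against 28.8 kb, from 1.13 kb (Atp5k) to 106 kb (Ndufaf2). Levels followed the complexes. By the median of the deposited FPKM, complex V (120) and complex IV (119) stood highest, complex III was at 68.8, complex I at 38.8 and complex II at 35.7, and the non-subunit genes were at 7.62. The highest single level was that of Cox8a, a small subunit of complex IV, at 293 FPKM (bounds in the authors' deposited table, 225 to 362). Atp5k (subunit e of ATP synthase) reached 214 FPKM, Uqcr11 (the smallest complex III subunit) 148 and Ndufa3 98.3 in the same deposited table. Within complex IV the range was wide, since Cox7b2, which is best known from testis, was listed by the authors at 8.58 FPKM with bounds from 2.61 to 14.5. The 4 genes of succinate dehydrogenase lay close to each other, with deposited levels of 25.0 (Sdha), 31.5 (Sdhb), 39.9 (Sdhd) and 45.1 (Sdhc) FPKM and bounds that overlap between neighbours in this order.

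**Figure D1:**
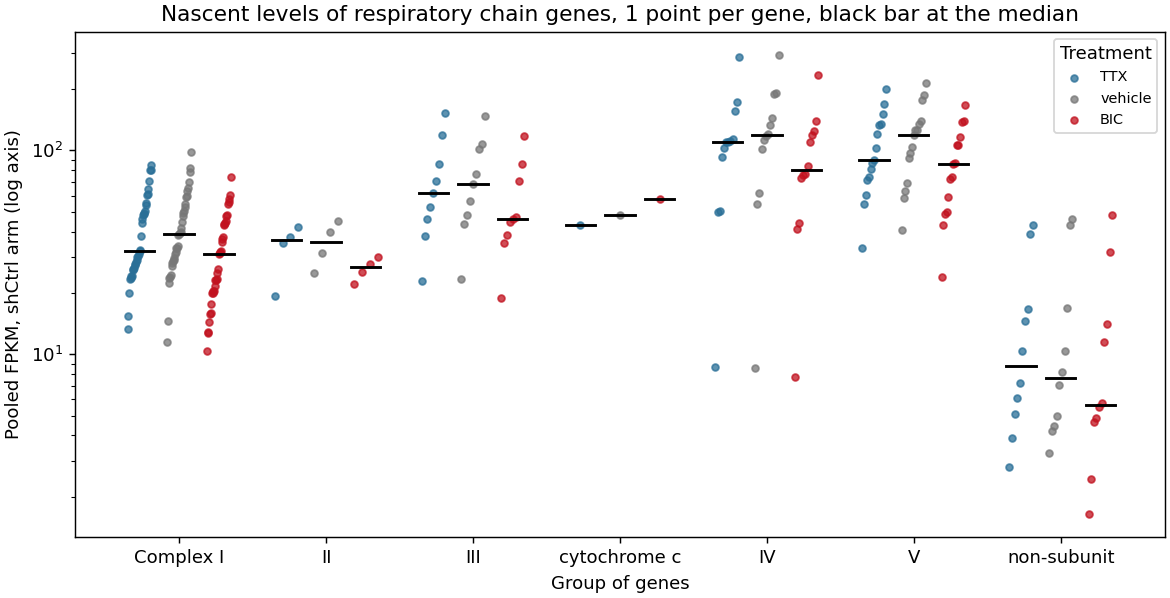
Pooled levels in FPKM (log axis) of the 86 genes in the shCtrl arm under TTX, vehicle and BIC, grouped by complex; each point is 1 gene as the authors deposited it, with no replicate values, and black bars are medians. Complexes IV and V sit highest, with vehicle medians of 119 and 120 FPKM, the non-subunit genes lowest at 7.62, and the medians under BIC lie below those in vehicle in each group except cytochrome c, a single gene.

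Bicuculline was followed by lower transcription across much of the chain. Averaged over both arms, 44 of 86 members fell and 3 rose, with a median log2 change of -0.19, a fold of 0.875. Over all 14067 genes 30.9% fell and 27.8% rose, and the median was -0.03. The members were thus called about as often as genes in general, 47 of 86 (54.7%) against 58.7%, but with 51.2% falling and 3.49% rising. Complex I led, with 23 of 35 subunits lower and 1 higher, and by share lower it was followed by complex V with 8 of 15, complex II with 2 of 4, complex IV with 5 of 12 and 1 higher, complex III with 3 of 9, and the non-subunit genes with 3 of 10. The last 2 shares were near the background of all genes. All 15 complex V subunits had values below 0, though 7 did not pass the test. These averages were tested here with a two-sided Wald test on the deposited changes and errors, with Benjamini-Hochberg adjustment over all 14067 genes. By arm, the authors' deposited tables have 10 of 35 complex I subunits lower in shCtrl and 21 in shRai1. Complex V had 1 and 6 of 15, complex IV 3 and 1 of 12, and complex III 2 and 3 of 9. Complex II had 1 and 2 of 4, and the non-subunit genes 0 and 3 of 10. The background was 20.0% lower in shCtrl and 26.1% in shRai1. Complex V and the non-subunit genes in shCtrl, and complex IV in shRai1, lay below it.

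Core subunits of complex I, the set that is conserved from bacteria, were among those that fell under BIC. They were singled out after the values had been seen. The averaged log2 changes ran from -0.31 (Ndufs1, SE 0.0585) to -0.46 (Ndufs8, SE 0.114), with Ndufs3 at -0.44, Ndufs7 at -0.41, Ndufv1, which binds NADH, at -0.39 and Ndufv2 at -0.34, and the largest adjusted p among these 6 by the Wald test was 0.000178. By the authors' deposited tables, all 6 were called lower in shRai1 (background 26.1%) and 5 of 6 in shCtrl (background 20.0%). In shCtrl Ndufs8 was at -0.31 (SE 0.177, DESeq2 adjusted p = 0.17). Ndufv3, an accessory subunit of the NADH-oxidising arm, had the largest fall among the accessory subunits at -0.45 (SE 0.0797, Wald adjusted p = 7.9e-08).

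The deepest averaged fall under BIC among the 86 genes was in complex II. Sdhc, a membrane anchor of complex II at chr1:173059288-173080734 in the coordinates of the deposited FPKM table (its build is not named in the table; the submitters' processing notes name mm9), fell by 0.51 (SE 0.0637, Wald adjusted p = 1.2e-14). The other anchor, Sdhd, fell by 0.30 (SE 0.0752, Wald adjusted p = 0.00019). The catalytic pair was not called: the averaged change was 0.09 (SE 0.088) for Sdha, the flavoprotein, and 0.05 (SE 0.0667) for Sdhb, the iron-sulfur protein, with Wald adjusted p of 0.37 and 0.55. The shCtrl level of Sdhc in the authors' deposited table of FPKM was 45.1 in vehicle and 30.1 in BIC, that of Sdhb 31.5 and 25.5. In complex III, Uqcr11 fell by 0.48 (SE 0.0761, Wald adjusted p = 1.6e-09) and Cyc1, which encodes cytochrome c1, by 0.47 (SE 0.09, Wald adjusted p = 5.6e-07), while the deposited changes of Uqcrb, Uqcrc2 and Uqcrfs1, the Rieske protein, lay above 0 in both arms and were not called. Atp5o, the stalk subunit OSCP, had the largest fall of complex V at -0.33 (SE 0.077, Wald adjusted p = 6.8e-05), and Cox4i1 that of complex IV at -0.25 (SE 0.0654, Wald adjusted p = 0.00038). Among the non-subunit genes, and next in size after Sdhc, Atp5sl fell by 0.49 (SE 0.138) and the assembly factor Ndufaf3 by 0.48 (SE 0.175), with Wald adjusted p of 0.00087 and 0.011.

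**Figure D2:**
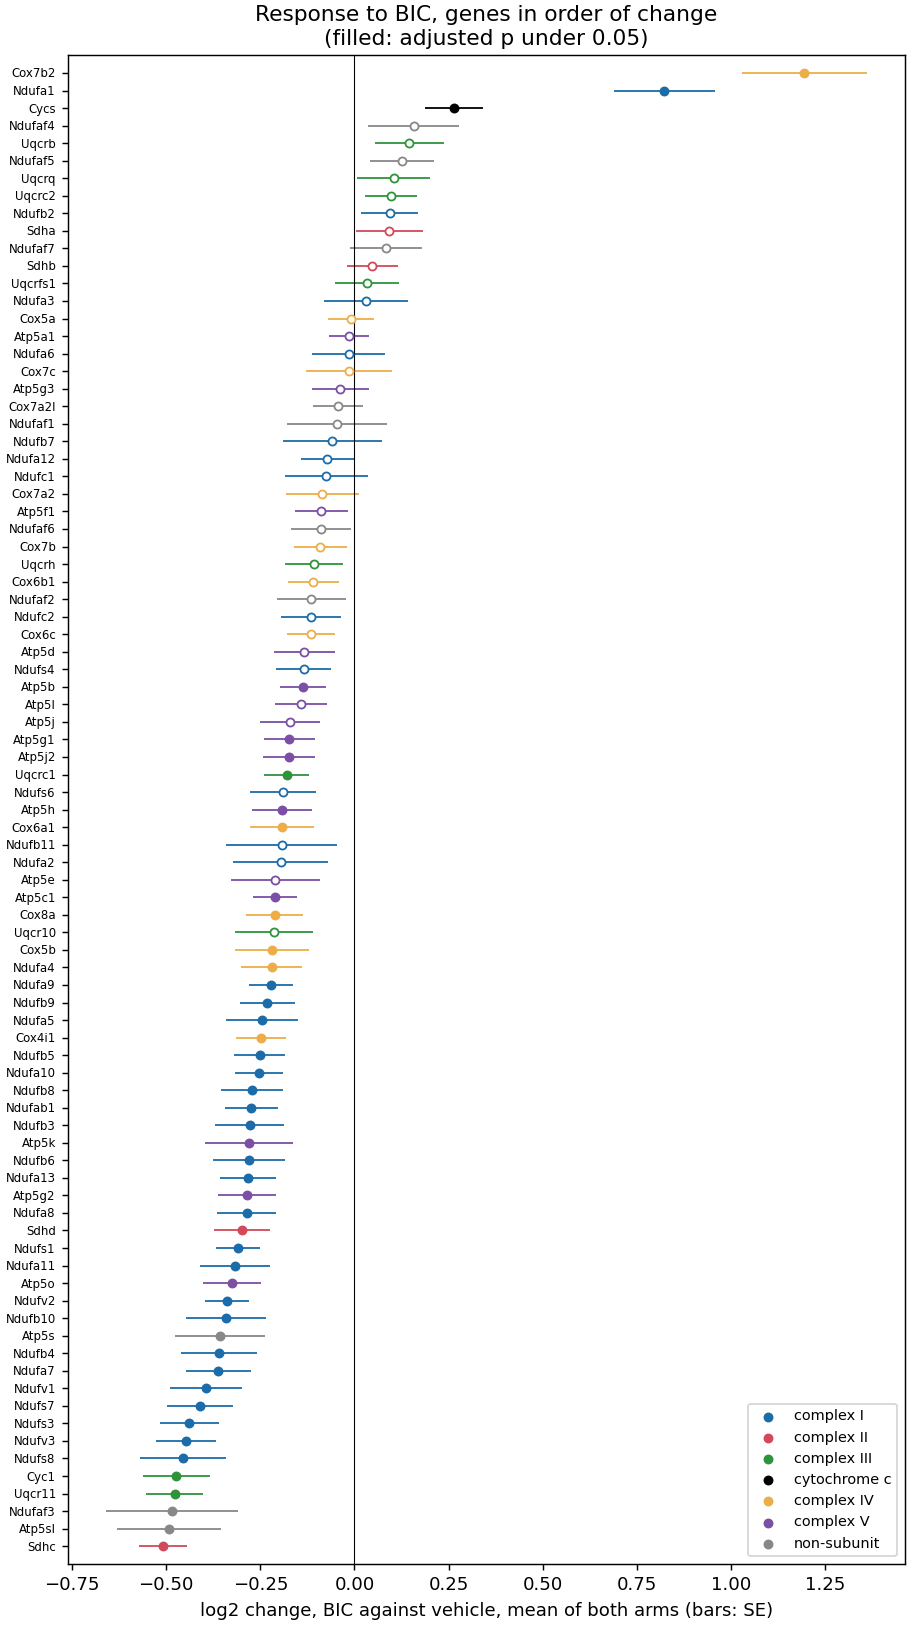
Log2 change under BIC against vehicle, averaged over both arms, for 85 of the 86 genes in order, coloured by complex; bars are SE and filled points have an adjusted p under 0.05. Filled points lie to the left of 0 for 43 genes, and to the right for Cox7b2, Ndufa1 and Cycs.

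Taken singly, both arms had more falls than rises among the members, with unequal numbers of calls. For BIC in shCtrl, with 2 libraries on each side, the authors' deposited table has 17 members that fell and 2 that rose (background 20.0% lower and 19.8% higher), a split that became 10 lower and 3 higher once changes were centred on the median of all genes (background then 17.5% lower and 21.6% higher). The share of members that fell in shCtrl was thus near the background, and below it after centring, while the share that rose was below it in both. In the deposited table for BIC in shRai1, with 3 libraries on each side, 36 fell and 3 rose (background 26.1% and 25.0%). The medians in these deposited tables were -0.20 and -0.17, against -0.04 and -0.02 over all genes. Falls were called in both arms for 12 of 86 members (background 17.6%), including Ndufs1, Ndufs3, Ndufs7, Ndufv1, Ndufv2, Ndufv3, Ndufa13, Sdhc, Cyc1, Uqcr11 and Atp5o. In shCtrl the largest called falls per complex in the authors' deposited table were Ndufs7 (-0.43), Sdhc (-0.42), Cyc1 (-0.45), Cox5b (-0.37) and Atp5o (-0.34). In shRai1 they were Ndufs8 (-0.60), Sdhc (-0.60), Uqcr11 (-0.54), Cox4i1 (-0.27), Atp5k (-0.36) and, among non-subunit genes, Ndufaf3 (-0.71), again in the authors' deposited table. The difference between the arms passed the Wald test for 0 of 86 members (background 0.0284%). An unadjusted p under 0.05 was found for 0 members, and for 507 of all 14067 genes. The arms share no library, and across the 86 members their changes correlated with r = 0.84, or 0.67 over 83 members without Cox7b2, Ndufa1 and Cycs; genes are not independent replicates.

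The pooled levels of the same groups, which are not an independent measurement, moved the same way. In the authors' deposited FPKM, 78 of 86 members were lower in BIC than in vehicle in the shCtrl arm. The median log2 ratio was -0.42, against -0.04 over 13906 genes. The members' median deposited log2 change in this arm was smaller in size, at -0.20. Of the 19 members called in that arm, 18 had the same direction in FPKM. The exception was Cox7b2. The 2 kinds of deposited change correlated across members with r = 0.44; genes are not independent replicates.

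Rises under BIC were few. Ndufa1, a small accessory subunit of complex I encoded on the X chromosome (chrX:34727584-34731233 in the same coordinates), rose by 0.82 in the average (SE 0.134, Wald adjusted p = 4.0e-09), with deposited changes of 0.77 in shCtrl and 0.88 in shRai1 in the authors' tables. Its pooled level in the authors' deposited table was 33.2 FPKM in vehicle (bounds 19.3 to 47.0) and 35.6 in BIC (21.2 to 50.0). Cox7b2 (chr5:71834062-71939444) rose by 1.19 (SE 0.165, Wald adjusted p = 3.1e-12) on a mean count of 80.6. Its pooled FPKM in the authors' deposited table was 8.58 in vehicle and 7.71 in BIC with wide bounds, so the 2 kinds of deposited table differ in sign here. Gabra4, a GABA-A receptor gene neighbouring Cox7b2, had deposited changes of 0.30 (SE 0.146, DESeq2 adjusted p = 0.10) and 0.44 (SE 0.117, DESeq2 adjusted p = 0.00062) in the authors' tables for shCtrl and shRai1; the part of neighbouring transcription in the Cox7b2 value was not tested.

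Cycs, the somatic cytochrome c gene (chr6:50512562-50516473), was called under both drugs, which are read against the same vehicle libraries. It fell by 0.49 under TTX averaged over arms (SE 0.0752, Wald adjusted p = 5.6e-10) and rose by 0.26 under BIC (SE 0.0778, Wald adjusted p = 0.0016). The authors' deposited tables give -0.40 (SE 0.112, DESeq2 adjusted p = 0.0026) and -0.59 (SE 0.0999, DESeq2 adjusted p = 6.2e-08) under TTX in shCtrl and shRai1. Under BIC they give 0.26 (SE 0.122, DESeq2 adjusted p = 0.082) and 0.27 (SE 0.0965, DESeq2 adjusted p = 0.016) in the authors' deposited tables, so that the rise in shCtrl alone was not called. The authors' pooled FPKM had the same order, with 43.1 in TTX (bounds 33.3 to 53.0), 48.5 in vehicle (37.5 to 59.5) and 57.5 in BIC (44.5 to 70.5). These bounds overlap between neighbours. Of the other 4 holders of the full cyclic AMP response element, Ndufa10 and Ndufa11 fell under BIC, and Ndufb2 and Uqcrfs1 were not called.

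**Figure D3:**
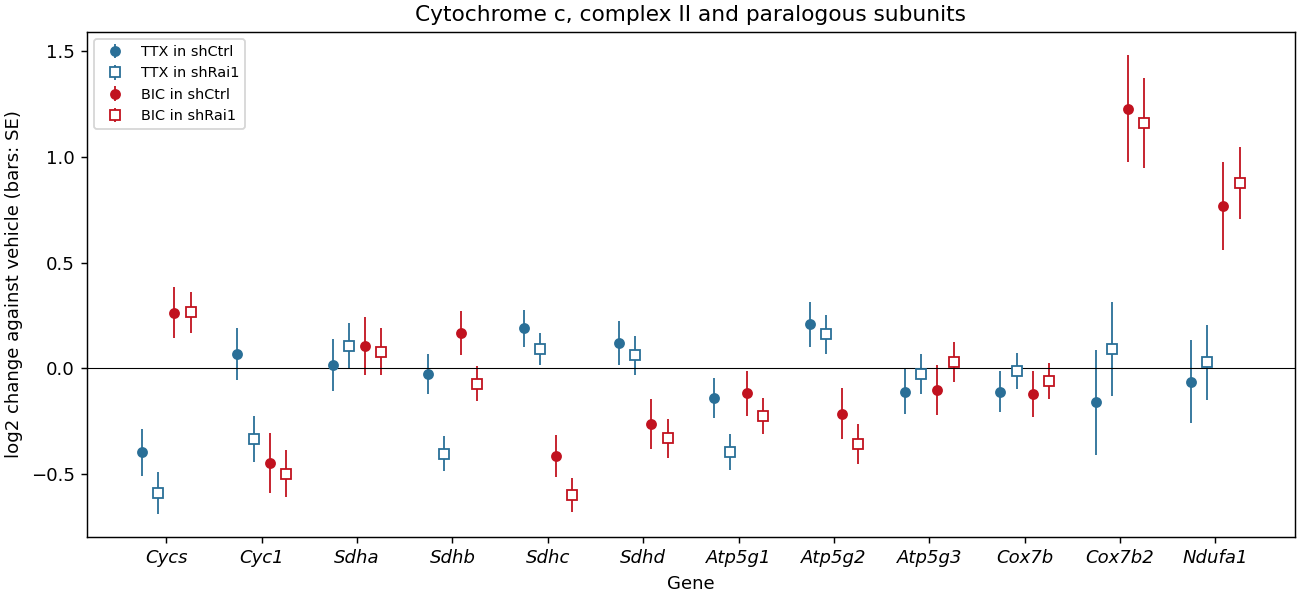
Deposited log2 changes against vehicle, with SE bars, for cytochrome c, Cyc1, the 4 complex II genes, the 3 Atp5g genes, the Cox7b pair and Ndufa1, with TTX in blue and BIC in red, filled circles for shCtrl and open squares for shRai1. Cycs lies below 0 under TTX and above 0 under BIC in both arms, and Cox7b2 and Ndufa1 lie highest under BIC.

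Under TTX calls were made in both directions. Averaged over arms, 19 of 86 members fell and 9 rose, with a median of -0.02. Over all genes 23.3% fell and 20.3% rose, so that the members' falls (22.1%) were near the background and their rises (10.5%) below it. In the authors' deposited FPKM for shCtrl, 60 of 86 members were lower in TTX than in vehicle and 26 higher. The median log2 ratio was -0.09, against 0.00 over 13917 genes. The deposited log2 changes for TTX in the same arm lay above 0 for 45 of 86 members, with a median of 0.02. The medians of the 2 kinds of deposited table thus differ in sign here. Averaged over arms, complex I had 5 subunits higher and 3 lower of 35 and complex III 2 lower of 9. Complex IV had 4 lower of 12 and complex V 1 higher and 5 lower of 15. In complex II 1 gene rose and 1 fell. The non-subunit genes had 2 higher and 3 lower of 10. All 12 complex IV subunits had averaged changes below 0, with a median of -0.13, and Cox6a1 (-0.19, SE 0.0797) and Cox6c (-0.17, SE 0.0589) were among the 4 that fell, with Wald adjusted p of 0.043 and 0.011.

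The deepest fall under TTX was that of Atp5d, the delta subunit of the catalytic F1 head of ATP synthase (chr10:79605060-79608563), by 0.53 (SE 0.0772, Wald adjusted p = 5.1e-11). Its pooled FPKM in shCtrl, as the authors deposited it, was 120 in vehicle and 86.6 in TTX. Midn, a gene neighbouring Atp5d, had log2 changes of -1.14 and -1.03 under TTX in the 2 arms in the authors' deposited tables; whether its transcription enters the Atp5d value was not tested. After Cycs came the assembly factor Ndufaf2 (-0.36, SE 0.087), Ndufb6 (-0.35, SE 0.0907) and Uqcrh, the hinge protein of complex III (-0.32, SE 0.0728), with Wald adjusted p of 0.00013, 0.00046 and 4.7e-05. The largest rises were in complex I accessory subunits, Ndufv3 at 0.43 (SE 0.0714, Wald adjusted p = 1.1e-08), Ndufb4 at 0.39 (SE 0.0907, Wald adjusted p = 7.0e-05) and Ndufb7 at 0.39 (SE 0.122, Wald adjusted p = 0.0043). The deposited FPKM of Ndufb7 did not follow, at 63.3 in vehicle and 60.7 in TTX in the authors' table.

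For TTX in shCtrl 7 members rose and 6 fell in the authors' deposited table (background 12.7% and 16.3%). In the deposited table for TTX in shRai1 2 rose and 18 fell (background 14.8% and 18.4%). Called in both arms were the rises of Ndufb4 and Ndufv3 (background 8.0%) and the falls of Atp5d, Cycs, Ndufb2, Ndufb6 and Uqcrh (background 11.9%). In shCtrl the largest called changes per group in the authors' deposited table were Ndufv3 (0.56) and Ndufb6 (-0.41) in complex I, Uqcrh (-0.35), Cox6a1 (-0.33), Atp5d (-0.59) and, among non-subunits, Atp5sl (0.53). In shRai1 they were Ndufb4 (0.42) and Ndufb6 (-0.29), Sdhb (-0.40), Cyc1 (-0.33), Cox6c (-0.25), Atp5d (-0.48) and Ndufaf4 (-0.42) in the authors' deposited table.

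Falls under TTX were called in shRai1 and not in shCtrl for 13 of 86 members (background 6.43%), among them Sdhb, Cyc1, Uqcr11, Uqcrc1, Uqcrfs1, Atp5b and Atp5g1. In complex III 5 of 9 subunits were called lower in shRai1 (background 18.4%) and 1 of 9 in shCtrl (background 16.3%), by the authors' deposited tables. The difference between arms did not pass for any of these genes. The interaction (response in shRai1 minus response in shCtrl) was called for 0 of 86 members by the Wald test (background 1.34%). An unadjusted p under 0.05 was found for 7 of 86 members, and for 1586 of all 14067 genes. It was nearest to the threshold for Ndufa8 (-0.43, SE 0.143, Wald adjusted p = 0.11) and Sdhb (-0.38, SE 0.126, Wald adjusted p = 0.11), followed by Cyc1 (-0.40, SE 0.165, Wald adjusted p = 0.27). As values, 62 of 86 interactions (72.1%) lay below 0, against 50.6% over all genes, with a median of -0.09 against 0.00. In the same interaction all 5 measured oligodendrocyte precursor markers were called higher by the Wald test, with a median of 1.16 (background 0.832%). Of 8 neuron markers 1, Rbfox3, was called, at -0.40 (SE 0.0902, Wald adjusted p = 0.0037, background 0.505% lower). The part of these cell types in the members' interactions was not tested.

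**Figure D4:**
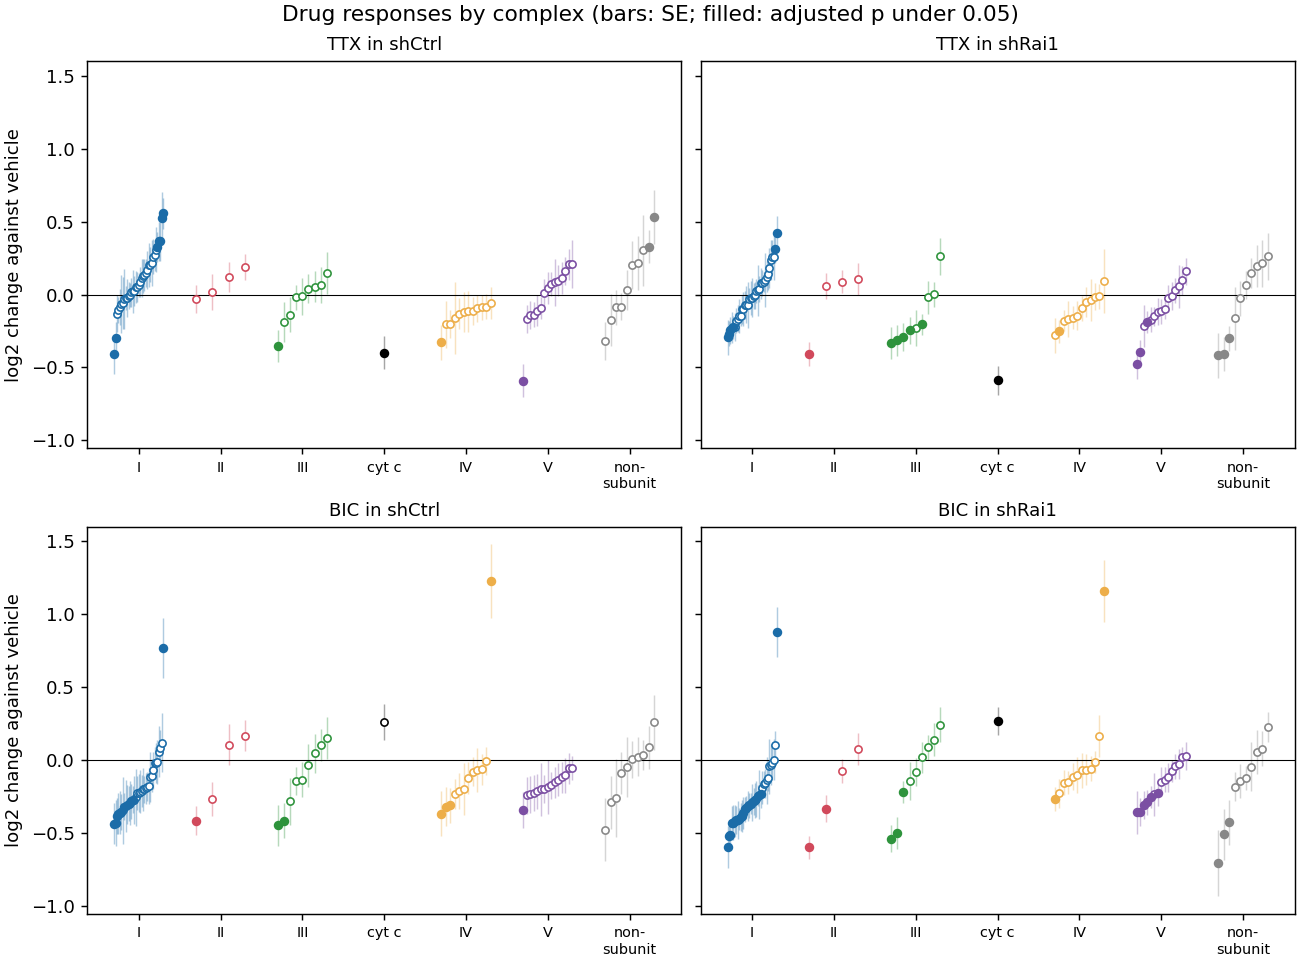
Deposited log2 changes against vehicle of the 86 genes under TTX (upper panels) and BIC (lower panels) in shCtrl (left) and shRai1 (right), ordered within each complex; bars are SE and filled points have an adjusted p under 0.05. Filled points under TTX lie on both sides of 0 in shCtrl (7 above, 6 below) and mostly below it in shRai1 (2 above, 18 below), and under BIC they lie mostly below it in both arms (17 of 19 in shCtrl and 36 of 39 in shRai1).

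Genes for alternative forms of a subunit did not always move together. The 3 Atp5g genes encode the same mature ring subunit c with different import sequences. Under TTX Atp5g1 fell by 0.27 (SE 0.0641, Wald adjusted p = 0.00013), Atp5g2 rose by 0.18 (SE 0.0708, Wald adjusted p = 0.024) and Atp5g3 was at -0.07 (SE 0.0711, Wald adjusted p = 0.47). The difference between genes was not tested, and in FPKM Atp5g2 was lower in TTX, at 73.8 against 91.9 in vehicle in the authors' deposited table. Under BIC Atp5g1 fell by 0.17 (SE 0.0685, Wald adjusted p = 0.022) and Atp5g2 by 0.29 (SE 0.0774, Wald adjusted p = 0.00056), with Atp5g3 at -0.04 (SE 0.0761, Wald adjusted p = 0.69). In several complex IV isoform pairs the widely expressed form alone was a member: Cox4i1, Cox6a1, Cox6b1, Cox7a2, Cox8a and Ndufa4 passed the minimum count, whereas Cox4i2, Cox6a2, Cox6b2, Cox7a1, Cox8b and Ndufa4l2 were below it. Of the Cox7b pair both forms were members. Under BIC Cox6a1 (-0.19, SE 0.0854), Cox8a (-0.21, SE 0.0759) and Ndufa4 (-0.22, SE 0.081) fell with Cox4i1, with Wald adjusted p of 0.041, 0.010 and 0.013. Cox6b1 (-0.11, SE 0.0679), Cox7a2 (-0.08, SE 0.0976) and the supercomplex factor Cox7a2l (-0.04, SE 0.0668) had Wald adjusted p of 0.16, 0.47 and 0.59.

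No call was made under either drug in either arm for 28 of the 86 members (background 31.5%), among them Sdha, Uqcrc2, Uqcrb, Cox5a, Atp5a1, Ndufs4 and Ndufa12. Averaged over arms 6 of the 28 passed the Wald test, 4 lower under TTX, which include Cox5a (-0.13, adjusted p = 0.047) and Atp5a1 (-0.12, adjusted p = 0.036), and 2 lower under BIC. The matching share among all genes without such a call was not counted, so 6 of 28 is not read as many or few. A p that misses the threshold does not show that the other members held their level. Counting of reads could also blur members that share sequence or position. The intervals of 9 members overlap another listed gene (Ndufa2, Ndufa10, Ndufa13, Ndufb11, Ndufs1, Uqcrc2, Atp5b, Atp5f1 and Atp5j). How overlapping genes and reads shared with near-identical copies were counted is not given in the sources used here.

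Between the arms labelled shRai1 and shCtrl almost no difference was called in these genes. Since Rai1 itself was not called lower in shRai1, the comparison is one of arms named by their labels. In vehicle Ndufa8, an accessory subunit of complex I (chr2:35891854-35904812), was the 1 member called, higher in shRai1 by 0.40 (SE 0.108, DESeq2 adjusted p = 0.034 in the authors' deposited table; background 0.128% higher and 0.739% lower). Sdhb came next at 0.32 (SE 0.0936, DESeq2 adjusted p = 0.057 in the authors' deposited table) and was also called once changes were centred on the median of all genes (Wald adjusted p = 0.0499). The authors' deposited differences between shRai1 and shCtrl were -0.03 in TTX and 0.19 in BIC for Ndufa8, and -0.05 and 0.08 for Sdhb. DESeq2 called 0 of 86 members in TTX (background 0.0427%) and 0 in BIC (background 0.0142%). An unadjusted p under 0.05 was found for 2 members in TTX (Cyc1 and Cox6b1) and 1 in BIC (Ndufa13). Over all 14067 genes it was found for 628 in TTX and 560 in BIC. Averaged over treatments the Wald test called 0 members (background 0.00711%), and the smallest adjusted p was 0.55 (Ndufa13, 0.19, SE 0.0578). Here 6 of 86 members had an unadjusted p under 0.05, and 702 of all 14067 genes.

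As values, the deposited differences between shRai1 and shCtrl lay above 0 for 58 of 86 members in vehicle and 64 in BIC, and below 0 for 58 in TTX. Over all genes 48.4% lay above 0 in vehicle and 51.9% in BIC, and 53.1% below 0 in TTX. The members' medians in the authors' deposited tables were 0.07 in vehicle, 0.05 in BIC and -0.02 in TTX, against -0.01, 0.01 and -0.01 over all genes. The comparison of arms in vehicle and the drug comparisons rest on the same vehicle libraries. Oligodendrocyte precursor markers differed between these libraries: 4 of 5 measured markers were called lower in shRai1 than in shCtrl in vehicle (median -0.78 in the authors' deposited table), among them Pdgfra at -1.37 (SE 0.13, DESeq2 adjusted p = 6.0e-21). The same list had 4 of 5 called lower under TTX in shCtrl (median -0.70, background 16.3% lower). Under TTX in shRai1 4 of 5 were called higher (median 0.47, background 14.8% higher), both by the authors' deposited tables. Of 8 neuron markers 1 was called between the arms in vehicle (background 0.128% higher and 0.739% lower). It was Rbfox3, higher in shRai1 by 0.24 (SE 0.0678, DESeq2 adjusted p = 0.049 in the authors' deposited table). The part of these cell types in the members' values was not tested.

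**Figure D5:**
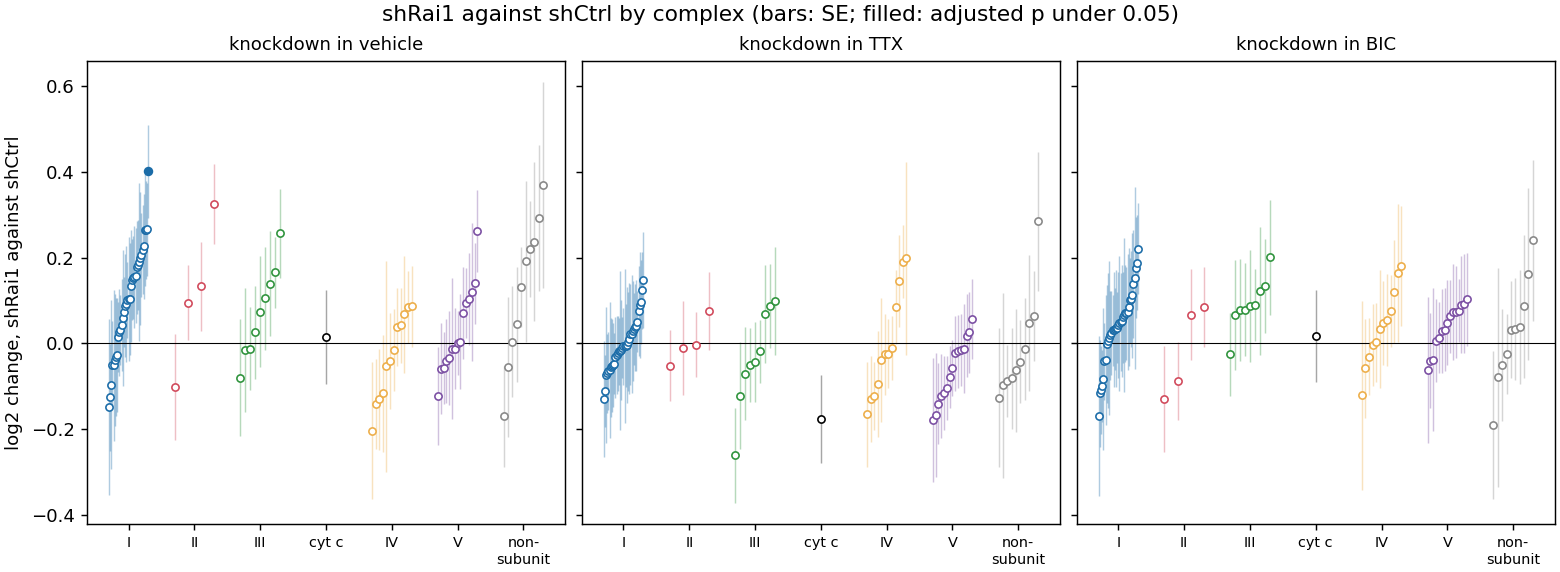
Deposited log2 change, shRai1 against shCtrl, of the 86 genes in vehicle, TTX and BIC, ordered within each complex; bars are SE and filled points have an adjusted p under 0.05. Ndufa8 in vehicle, at 0.40, is the single filled point.

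Genes that feed or control the chain were read beside it, from lists chosen with earlier results of these data known. Of 14 genes of the tricarboxylic acid cycle, which supplies NADH and succinate, 9 fell and 0 rose under TTX averaged over arms. The median was -0.18 (background 23.3% lower and 20.3% higher). By arm, the authors' deposited tables have 1 of the 14 lower in shCtrl (background 16.3%) and 9 in shRai1 (background 18.4%). The medians there were -0.12 and -0.28, and the interaction was called for 0 of the 14 by the Wald test (background 1.34%). Idh3a, a subunit of the NAD-dependent isocitrate dehydrogenase, had the largest averaged fall at -0.48 (SE 0.055, Wald adjusted p = 3.7e-17). Under BIC 6 of the 14 fell and 3 rose, where 30.9% of all genes fell and 27.8% rose. Citrate synthase (Cs) fell by 0.39 (SE 0.061, Wald adjusted p = 1.3e-09), while Suclg1, a succinyl-CoA ligase subunit, rose by 0.56 (SE 0.06), Ogdh, of the oxoglutarate dehydrogenase complex, by 0.44 (SE 0.048) and Dlst, of the same complex, by 0.37 (SE 0.061). Their Wald adjusted p were 2.0e-19, 1.0e-18 and 6.4e-09.

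Of 14 regulators of mitochondrial gene expression, 2 fell under TTX and 0 rose, against the same background for TTX of 23.3% and 20.3%. They were Pprc1, a coactivator related to PGC-1 alpha, at -0.69 (SE 0.079, Wald adjusted p = 4.6e-17) and Ppargc1b, encoding PGC-1 beta, at -0.29 (SE 0.044, Wald adjusted p = 4.2e-10). Under BIC 6 of these 14 fell and 2 rose (background 30.9% and 27.8%). Nrf1, encoding NRF-1, rose by 0.30 (SE 0.052, Wald adjusted p = 2.9e-08). Of the factor GABP, the partner subunit Gabpb1 rose by 0.16 (Wald adjusted p = 0.022), whereas the DNA-binding subunit Gabpa fell by 0.35 (SE 0.09, Wald adjusted p = 0.0002). Esrrg, an orphan nuclear receptor, fell by 0.53 (SE 0.086, Wald adjusted p = 2.7e-09) and Tfb1m, a mitochondrial rRNA methyltransferase, by 0.71 (SE 0.17, Wald adjusted p = 5.5e-05). Ppargc1a, encoding PGC-1 alpha, was at 0.04 under BIC (SE 0.091, Wald adjusted p = 0.72). Of 28 measured assembly factors outside the name rule, from 32 listed, 13 fell and 2 rose under BIC with a median of -0.17, beside -0.19 for the members. Of 17 glycolytic genes 8 fell and 4 rose under BIC averaged over arms, with a median of -0.16. Under TTX 8 fell and 2 rose, with a median of -0.11. The background shares are those given for the regulators. By arm, the authors' deposited tables for BIC have 8 glycolytic genes lower and 3 higher in shCtrl (background 20.0% and 19.8%). In shRai1 they have 3 lower and 4 higher (background 26.1% and 25.0%).

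The motif holders among the 70 members with a promoter entry were set beside the rest as a description. Under TTX averaged over arms 4 of the 5 holders of the full cyclic AMP response element (Cycs, Uqcrfs1, Ndufa10 and Ndufb2) fell. Of 65 members without it 13 fell, and the medians were -0.23 and -0.01 (background 23.3% lower and 20.3% higher). By the authors' deposited tables, 2 of the 5 holders were called lower in shCtrl and 4 in shRai1. Of the 65 without the element 4 and 12 were called lower (background 16.3% in shCtrl and 18.4% in shRai1). Under BIC 2 of these 5 fell and 1 rose, against 34 of 65 lower and 2 higher without the element, with medians of 0.03 and -0.19 (background 30.9% lower and 27.8% higher). Under TTX 2 of 18 NRF-1 holders fell and 3 rose, against 15 of 52 lower and 2 higher without it, with medians of 0.04 and -0.06. Under BIC 12 of 18 NRF-1 holders fell and 0 rose, against 24 of 52 lower and 3 higher without it, with medians of -0.20 and -0.17. For the ETS core 9 of 17 holders and 27 of 53 others fell under BIC, and 6 of 17 and 11 of 53 under TTX.

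The labelled cell types were present by their markers. All 8 neuron and 7 astrocyte markers and 5 of 6 oligodendrocyte precursor markers reached the minimum count, but 2 of 6 microglial and 1 of 5 endothelial ones. In the authors' deposited FPKM for shCtrl in vehicle, TTX and BIC, the summed levels were 594, 524 and 590 for neurons, 207, 171 and 156 for astrocytes, 131, 92.4 and 109 for oligodendrocyte precursors, 21.6, 22.7 and 31.3 for microglia and 1.12, 1.31 and 1.59 for endothelium, where Cldn5 was listed at 0 in TTX and BIC. Under BIC averaged over arms 4 of 8 neuron markers rose and 3 fell, 2 of 7 astrocyte markers fell and 0 rose, 1 of 5 oligodendrocyte precursor markers fell and 1 of 2 microglial markers rose, where 30.9% of all genes fell and 27.8% rose. Their part in the members' fall under BIC was not tested.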

How the data were processed

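Nascent RNA was measured by Bru-seq in 16 libraries of 6 groups; 12 ChIP-seq samples are not analysed here. Reads were single-end and stranded, per the labels' protocols, and TopHat2 2.1.0, Bowtie2 2.2.6, DESeq2 and mm9 are named in the submitters' processing notes. The authors deposited 7 comparison tables: per the file headers, each gives a mean normalized count (a signal averaged over libraries), a log2 fold change with its SE, a Wald score, and a p-value before and after adjustment. The authors deposited 1 pooled FPKM per condition with bounds, per the file headers. The shRai1 columns there were left out as single values, because their treatment names disagreed with the knockdown comparisons. One comparison (knockdown in vehicle) came without gene names, and 20107 genes, all 86 members among them, were identified by a unique mean count. Log2 changes of low genes are pulled toward 0.

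Averages over arms or treatments and interactions were computed here from deposited changes of contrasts that share no library, with two-sided Wald tests and Benjamini-Hochberg adjustment over 14067 genes (minimum mean count 20) (scipy 1.17.1, pandas 2.3.3); this was tested on simulated data. Members were described by counts and medians beside all genes. Members and lists were chosen with earlier results of these data known. Values named in full were, per comparison and complex, the called member with the largest rise and fall, the isoform sets, the Sdh genes, Cyc1, Cycs and every member called in a knockdown or interaction contrast; further genes were named after their values were seen. Alternatives were other thresholds, minima, adjustment sets, structural subunits only and centring on the median of all genes. Replicates are biological per the series' design text, each made from tissue of several embryos balanced for sex. The values of 1 member are not reported here by themselves.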

Additional observations from a re-analysis of the deposited data

How the results depend on the processing

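At an adjusted p under 0.01 the members called were 5 for TTX in shCtrl, 10 for TTX in shRai1, 8 for BIC in shCtrl, 14 for TTX averaged over arms and 0 for shRai1 against shCtrl in vehicle. The last comparison had 2 called members at an adjusted p under 0.1, and also 2 when changes were centred on the median of all genes. The other 84 counts, taken over both directions, stayed within 1.5 times the reported ones. Not all of these could move: a minimum count of 50 removes no member, since the lowest is at 58.5, and so leaves every count and median unchanged. The counts for shRai1 against shCtrl in TTX, in BIC and averaged, and for both interactions, were 0 in every setting. By direction, centring took the falls for BIC in shCtrl from 17 to 10. An adjusted p under 0.1 took the rises for BIC in shRai1 from 3 to 5. The 48 medians moved by less than the median SE of the members in the same comparison, which is not the spread of a median. Of 1134 values for named genes under these settings, 34 lost and 12 gained a call, and no called value changed sign. No paired analysis was possible because the tables hold no values per library; for the same reason leaving out single libraries was not run. The median SE over the members was 0.126 for BIC in shCtrl, with 2 libraries a group, and 0.0993 in shRai1, with 3; depth per library is unknown.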

Other observations

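Of the 8 genes that fitted the names but not the minimum count, Ndufs5, a complex I subunit, differed between the 2 kinds of deposited table. Its mean normalized count was 0.50, whereas the authors' pooled FPKM in shCtrl vehicle was 43.4 (bounds 27.2 to 59.5), near the complex I median of 38.8. Cox8b likewise had a mean count of 0.05 and 16.1 FPKM (bounds 4.16 to 28.1). Macf1, a large gene neighbouring Ndufs5, had a mean count of 14749. Cox8c was listed at 0 FPKM in vehicle.

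Across the 86 members the BIC change averaged over arms had a Spearman rho of 0.03 with interval length, against 0.14 over all genes; genes are not independent replicates.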
